A study of Homo sapiens with 6 samples.

Results

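The 10 genes listed here form the bile acid feedback axis of the liver cell: the bile acid receptor FXR (NR1H4) and its target SHP (NR0B2), the synthesis enzymes CYP7A1 and CYP8B1, the conjugation enzymes SLC27A5 and BAAT, the bile salt export pump ABCB11, the hormone FGF19, and the FGF19 receptor FGFR4 with its co-receptor KLB. Members were chosen by symbol, and 7 of the 10 stood in the deposited FPKM table of 18404 genes (fragments relative to the length of the gene and the size of the library). CYP7A1, ABCB11 and FGF19 were outside that table, which holds the genes with at least 1 count in every library, and were read from the count table of 60504 genes. HepG2, an established human liver carcinoma line, was grown adherent in DMEM medium on multi-well plates. The cells received 10 µM oridonin, a plant diterpenoid, or 0.1% DMSO for 48 h, with 3 libraries each, and the labels do not say whether the oridonin wells held DMSO too. Whether the 3 samples of a treatment were separate cultures is not stated, so the p-values reflect the variation among these samples, possibly only technical. Values per library are given in replicate order, 1 to 3.

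FXR is a nuclear receptor that bile acids activate and that binds DNA with the partner receptor RXR. In hepatocytes it induces NR0B2, a receptor without a DNA-binding domain that represses CYP7A1, the rate-limiting enzyme of bile acid synthesis, and it induces ABCB11, which exports bile salts into bile. In the ileum FXR induces FGF19, which reaches the liver in portal blood, binds FGFR4 together with the KLB protein (beta-Klotho), and lowers CYP7A1 as well.

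With oridonin, the transcripts of the receptors at both ends of this axis fell: NR1H4 by 55.9%, KLB by 44.5% and FGFR4 by 34.1%. The transcript of BAAT, the enzyme that joins bile acids to glycine or taurine, rose 2.59-fold from a low level. NR0B2 and SLC27A5 did not pass the test, and CYP7A1, CYP8B1, ABCB11 and FGF19 had too few counts to be tested. Of the 6 members tested, 3 were thus called lower and 1 higher by edgeR's quasi-likelihood test at an adjusted p under 0.05 (median log2 fold change -0.30). Of all 15116 genes tested, 41.9% were called, 21.3% lower and 20.6% higher, and the median log2 fold change was 0.01, so 4 calls among 6 genes is to be read against a background in which calls were common. With total counts as the only scaling 4487 of all genes were called higher and 2359 lower, against 3118 higher and 3214 lower with TMM scaling (trimmed mean of M values), and the same 4 members were called in both. The groups did not overlap for these 4 members, 3 lower and 1 higher in every oridonin library; over all tested genes 51.6% did not overlap, 25.6% lower and 26.0% higher. A call with a log2 fold change of -0.5 or below was made for 3 members and for 7.17% of all tested genes. The members were chosen with earlier results of these data known, so these shares are no independent test.

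Libraries held 22250202 to 30739574 counts in total, and correlations of log2 CPM (counts scaled to the library size) between libraries were 0.992 to 0.9956 within a treatment. Markers of hepatocytes were abundant, with a summed level of 31300 to 34300 CPM in DMSO and 19200 to 21300 CPM in oridonin over 14 genes. Of these, 10 were called lower and 2 higher, where 21.3% and 20.6% of all tested genes were. Bulk RNA cannot tell fewer cells of a type from less RNA per cell. Marker transcripts of gut and plasma cells were low but also differed between the treatments. Over 18 gut epithelial markers below 5 CPM in at least 1 DMSO library, the summed level was 1.14, 5.02 and 5.62 CPM in the DMSO libraries and 10.3, 24.2 and 21.9 CPM in the oridonin libraries. The whole list of 20 gut markers, led by VIL1, which HepG2 expressed at 388 CPM in DMSO, summed to 390 to 407 CPM in DMSO and 320 to 324 CPM in oridonin, with the ileal bile acid importer SLC10A2 at 0 counts in every library. Over 11 plasma and B cell markers the sum ran from 3.28 to 18.8 CPM in DMSO and from 24.7 to 75.1 CPM in oridonin, with MS4A1 at 0 throughout. Of the tested genes, 5 of 9 gut markers were called higher and 1 lower, and 2 of 7 plasma and B cell markers higher and 1 lower. Of 6 tested cholangiocyte markers, 2 were called higher and 3 lower (the list of 10 summed to 2330 to 2590 CPM in DMSO and 3500 to 3710 CPM in oridonin), and 14 stellate and Kupffer cell markers summed to 64.6 to 73.4 CPM in DMSO and 43.6 to 44.8 CPM in oridonin, with CD5L, MARCO and VSIG4 at 0. That sum was led by PDGFRB. The 13 markers of this list below 5 CPM in at least 1 DMSO library summed to 6.06 to 8.32 CPM in DMSO and 11 to 13.1 CPM in oridonin. Of its 4 tested genes, 2 were called higher (COL1A1 and PECAM1) and 1 lower (PDGFRB).

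Per length, the members spanned a wide range of levels. In DMSO, mean FPKM fell in the order FGFR4 (112 ± 9.63), NR0B2 (54.1 ± 6.52), NR1H4 (14.6 ± 1.04), KLB (11.4 ± 0.362), SLC27A5 (1.20 ± 0.0624), BAAT (0.312 ± 0.0669) and CYP8B1 (0.0383 ± 0.0105), each as SD with n = 3. No neighbours in that order overlapped among the DMSO libraries. FGFR4 lay above 98.2% of the genes in the FPKM table, NR0B2 above 95.6%, NR1H4 above 82.2% and KLB above 78.2%, while BAAT lay above 24.5% and CYP8B1 above 4.75%. In oridonin the order was the same, but NR1H4 (6.55 ± 0.341) and KLB (6.40 ± 0.332) overlapped (SD, n = 3).

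**Figure D1:**
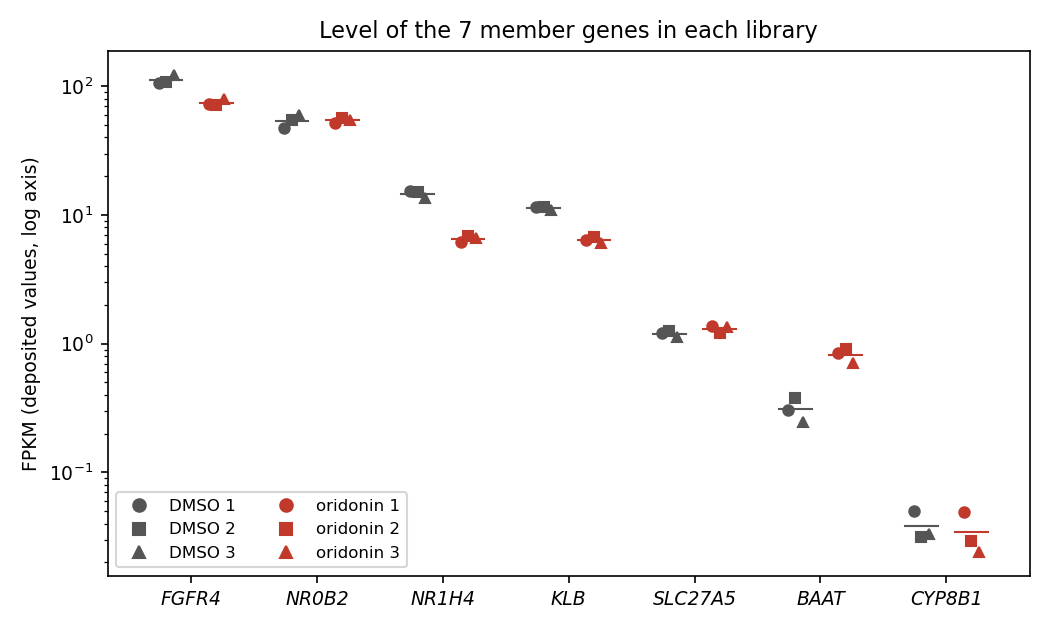
Deposited FPKM on a log axis for the 7 member genes in the FPKM table, 3 DMSO libraries (grey) and 3 oridonin libraries (red) per gene, marker shape for the replicate number and a line at the group mean. NR1H4, KLB and FGFR4 were lower in all 3 oridonin libraries and BAAT was higher, while NR0B2, SLC27A5 and CYP8B1 overlapped.

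NR1H4 (ENSG00000012504, hg38 chromosome 12, 100473708 to 100564413, plus strand) encodes FXR itself. It had 54.0, 52.6 and 46.6 CPM in the DMSO libraries and 21.5, 23.5 and 22.5 CPM in the oridonin libraries. Every DMSO library lay well above every oridonin library, and the groups did not overlap. It had a log2 fold change of -1.18 ± 0.07 (SE, n = 3 per group; adjusted p = 9.8e-10 by edgeR), and only 1.03% of the tested genes had a lower one. On the deposited log2 FPKM scale the values were 3.94, 3.92 and 3.75 in DMSO and 2.63, 2.78 and 2.72 in oridonin. The partner gene RXRA had 112 ± 4.35 CPM in DMSO against 84.3 ± 4.49 CPM with oridonin (SD, n = 3) and fell by 0.41 on the log2 scale (adjusted p = 1.18e-05 by edgeR). RXRA stood at 0.678, 0.651 and 0.796 times the FPKM of NR1H4 in the DMSO libraries and at 1.29, 1.07 and 1.23 times in the oridonin libraries (exact permutation p = 0.1, two-sided, adjusted p = 0.133).

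NR0B2 (ENSG00000131910, hg38 chromosome 1, 26911489 to 26913966, minus strand), the classical FXR target, was not called. Its level was 55.2, 64.0 and 69.3 CPM in the DMSO libraries and 60.2, 65.0 and 62.8 CPM in the oridonin libraries. All 3 oridonin values lay inside the DMSO range. It had a log2 fold change of -0.01 ± 0.07 (SE; adjusted p = 0.953 by edgeR), and the sign turned in 6 of 12 other settings, among them total-count scaling at 0.07. The gene lies within the span of NUDC on the opposite strand, which was called higher, but the annotated exons of NR0B2 and NUDC share 0 bases. Set against the receptor, NR0B2 stood at 3.07, 3.63 and 4.47 times the FPKM of NR1H4 in the DMSO libraries and at 8.40, 8.22 and 8.34 times in the oridonin libraries. The ratio was higher in all 3 oridonin libraries, with an exact permutation p of 0.1 (two-sided), the smallest that 3 against 3 samples allow, and 0.133 adjusted over the 4 ratios and shares tested. With NR0B2 itself at -0.01, this ratio mainly restates the fall of NR1H4.

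KLB (ENSG00000134962, hg38 chromosome 4, 39406853 to 39451536, plus strand) encodes beta-Klotho, the membrane protein without which FGF19 binds its receptor poorly. It had 71.8, 71.1 and 66.9 CPM in the DMSO libraries and 39.2, 40.6 and 36.4 CPM in the oridonin libraries. The groups were far apart, and the libraries of each differed by only a few CPM. It had a log2 fold change of -0.85 ± 0.06 (SE, n = 3 per group; adjusted p = 7.55e-09 by edgeR), lower than in 97.3% of tested genes.

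FGFR4 (ENSG00000160867, hg38 chromosome 5, 177086886 to 177098144, plus strand), the receptor tyrosine kinase for FGF19 and the most abundant member, had 518, 520 and 594 CPM in the DMSO libraries. It had 350, 342 and 383 CPM in the oridonin libraries. Library 3 was the highest of each treatment, and the groups did not overlap. It had a log2 fold change of -0.60 ± 0.06 (SE, n = 3 per group; adjusted p = 6.81e-07 by edgeR). FGFR4 stood at 9.06, 9.19 and 11.2 times the FPKM of KLB in DMSO and at 11.3, 10.6 and 13.2 times in oridonin, where the ranges overlapped (exact permutation p = 0.2, two-sided, adjusted p = 0.2). The smallest p this permutation test allows is 0.1.

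FGFR1, FGFR2 and FGFR3 fell with FGFR4. FGFR2 had the lowest log2 fold change of them, -2.02 ± 0.21, with 3.58 ± 0.573 CPM in DMSO against 0.872 ± 0.203 CPM with oridonin (SD, n = 3). FGFR1 fell from 252 ± 18.8 to 166 ± 1.56 CPM, at -0.60 like FGFR4, and FGFR3 from 348 ± 13.3 to 279 ± 22.8 CPM, at -0.32 (edgeR adjusted p = 7.42e-07, 1.49e-07 and 0.000233 for FGFR2, FGFR1 and FGFR3). Of the summed FPKM of the FGF receptor genes, FGFR4 held 54.0%, 54.7% and 56.0% in the DMSO libraries and 51.4%, 51.2% and 50.9% in the oridonin libraries. FGFR3 held 35.2 ± 1.19% in DMSO against 39.7 ± 0.708% with oridonin (SD, n = 3). The FGFR4 share was lower in all 3 oridonin libraries (exact permutation p = 0.1, two-sided, adjusted p = 0.133).

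**Figure D2:**
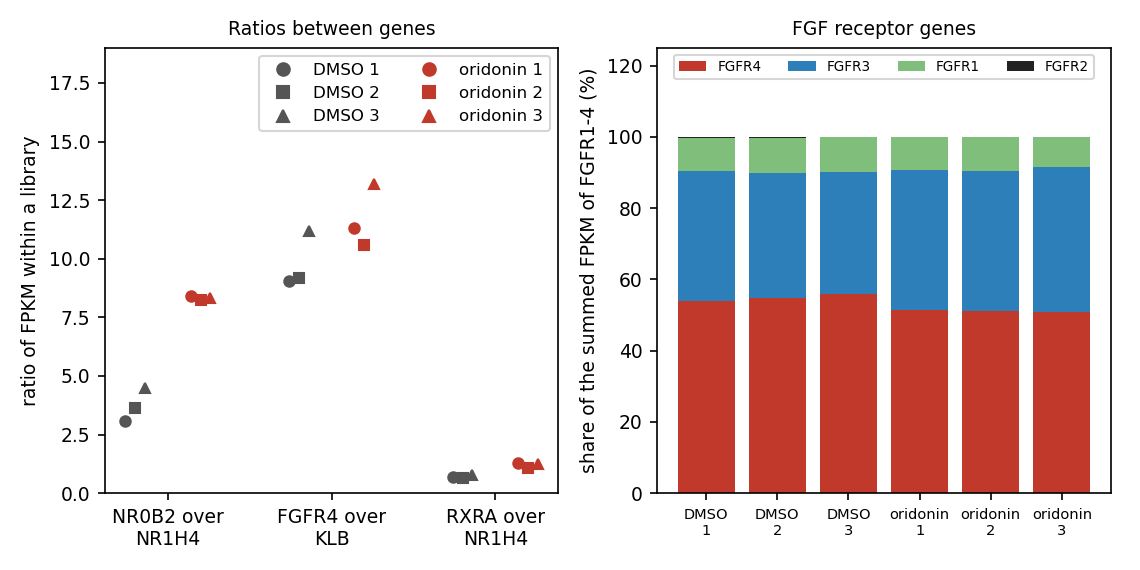
Left, the ratio of FPKM within each library for 3 pairs of genes (DMSO grey, oridonin red). Right, the share of each of FGFR1 to FGFR4 in their summed FPKM, in percent, per library. The ratio of NR0B2 to NR1H4 was 3.07 to 4.47 in DMSO and 8.22 to 8.40 in oridonin, and FGFR4 went from 54.0% to 56.0% of receptor FPKM to 50.9% to 51.4%.

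The hormone gene itself had few reads. FGF19 had 1, 1 and 4 counts in the DMSO libraries and 0, 1 and 0 counts in the oridonin libraries. The 6 counts in DMSO against 1 in oridonin correspond to a level 7.01-fold higher in DMSO, with an exact 95% counting interval from 0.85 to 322, so no difference was detectable at this depth. FGF21, the related hormone that also signals through KLB, had 22 counts in DMSO and 8 in oridonin and was not tested.

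BAAT (ENSG00000136881, hg38 chromosome 9, 101360417 to 101383519, minus strand) was the member that rose. It had 1.05, 1.30 and 0.840 CPM in the DMSO libraries and 2.86, 3.05 and 2.38 CPM in the oridonin libraries. These levels rest on 83 counts over the DMSO libraries and 252 over the oridonin libraries, and the groups did not overlap. It had a log2 fold change of 1.37 ± 0.21 (SE, n = 3 per group; adjusted p = 4.4e-05 by edgeR), and 1.76% of tested genes had a higher one. The gut epithelial and plasma cell sums given above were also higher in oridonin. Oridonin library 2 had the highest sums and the highest BAAT level of all. Oridonin library 1 had lower sums and more BAAT than oridonin library 3, at 91 against 67 BAAT counts. DMSO library 1 had lower sums than DMSO library 3 and a higher BAAT level, 1.05 against 0.840 CPM, on 23 BAAT counts in each. With 3 libraries per treatment and so few counts, these orders cannot show the part of gut and plasma cell RNA in the BAAT result, which was not tested. BAAT shares 453 exon bases with a pseudogene on the opposite strand that had 0 CPM.

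SLC27A5 (ENSG00000083807, hg38 chromosome 19, 58479512 to 58512413, minus strand) encodes the ligase that activates bile acids with coenzyme A before BAAT acts. It had 9.80, 10.2 and 9.09 CPM in the DMSO libraries and 11.1, 9.70 and 10.7 CPM in the oridonin libraries. The ranges overlapped, and the log2 fold change of 0.11 ± 0.09 did not pass the test (SE, edgeR adjusted p = 0.349). Its value is uncertain, because 1131 exon bases are shared with ZNF446 on the opposite strand and the strand setting of the counting is not given in the sources used here.

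CYP8B1 (ENSG00000180432, hg38 chromosome 3, 42856005 to 42876165, minus strand), the hydroxylase needed to make cholic acid, had 5, 4 and 4 counts in the DMSO libraries and 7, 4 and 3 counts in the oridonin libraries. The 13 counts in DMSO and 14 in oridonin give a ratio of 0.922, oridonin over DMSO, with an exact 95% counting interval from 0.402 to 2.13. It shares 142 exon bases with ACKR2 on the opposite strand, which was more abundant, at 1.69 CPM in DMSO, so part of these few reads could belong to ACKR2. CYP7A1 had 1 count in DMSO library 2 and 0 in the other libraries. Over the oridonin libraries a floor of 3 counts corresponds to 0.0330 CPM, and the exact 95% Poisson interval of 0 counts runs up to 3.69 counts. ABCB11 had 0 counts in each DMSO library and 3, 2 and 2 counts in the oridonin libraries. The 0 counts over the DMSO group have an exact 95% Poisson interval up to 3.69 counts. The 7 over the oridonin group have one from 2.81 to 14.4 counts. These intervals overlap, but overlap is not a test of a difference, and the ABCB11 difference was not tested. The part of the gut epithelial RNA in these few ABCB11 reads was not tested. Intervals and floors cover counting error only.

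**Figure D3:**
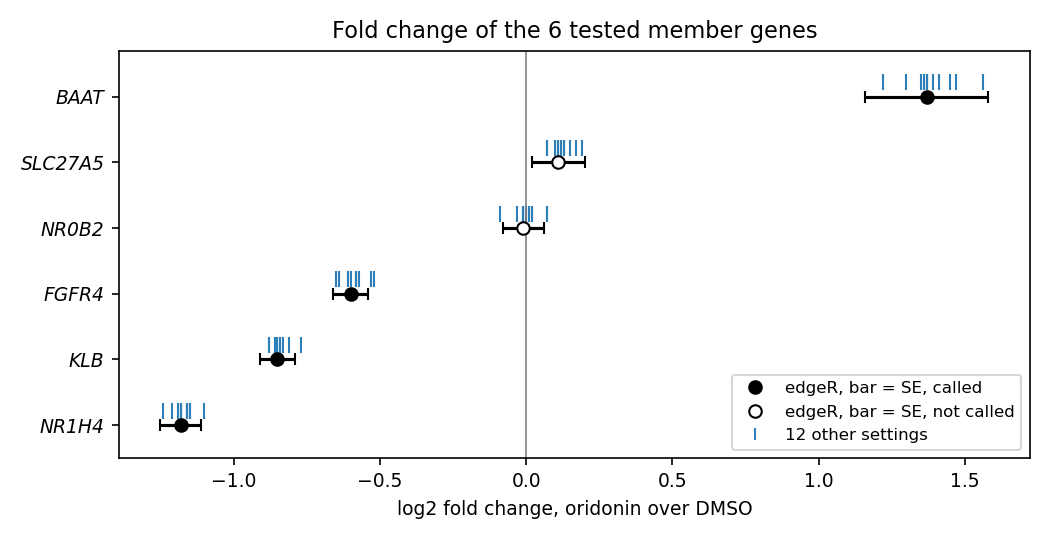
Log2 fold change, oridonin over DMSO, of the 6 tested members from edgeR (circles with SE bars; filled where called) and under 12 other settings (ticks above). NR1H4 ran from -1.24 to -1.10, KLB from -0.88 to -0.77, FGFR4 from -0.65 to -0.52 and BAAT from 1.22 to 1.56, while NR0B2 lay on both sides of 0.

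The promoters of the 4 members that were called are shown because these genes moved under the same treatment, 3 down and 1 up. Each is the RefSeq window on GRCh38.p14 from 250 bases before to 50 after the start, on the strand of the gene; 6 of the 10 members matched an entry, and where a gene has several, the one nearest to the deposited 5′ end is given. Capitals mark every match, on either strand, to the nuclear receptor hexamer AGGTCA, the forkhead motif TGTTTAC, the TATA box TATAAA, the GC box GGGCGG or the CCAAT box. The windows are chr12:100503110-100503409 for NR1H4, chr4:39406680-39406979 for KLB, chr5:177086665-177086964 for FGFR4 and chr9:101383515-101383814 for BAAT, the last on the minus strand.
NR1H4: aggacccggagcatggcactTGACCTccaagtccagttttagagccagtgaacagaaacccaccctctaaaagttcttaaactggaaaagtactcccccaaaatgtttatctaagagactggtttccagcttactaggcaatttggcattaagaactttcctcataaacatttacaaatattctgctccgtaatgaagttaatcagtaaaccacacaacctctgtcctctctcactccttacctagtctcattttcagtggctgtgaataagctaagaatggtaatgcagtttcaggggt
KLB: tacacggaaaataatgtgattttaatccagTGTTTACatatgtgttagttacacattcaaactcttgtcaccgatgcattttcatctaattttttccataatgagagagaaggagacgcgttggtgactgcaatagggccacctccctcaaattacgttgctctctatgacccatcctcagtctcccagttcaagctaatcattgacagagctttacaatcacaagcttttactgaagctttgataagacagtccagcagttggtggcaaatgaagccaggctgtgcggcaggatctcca
FGFR4: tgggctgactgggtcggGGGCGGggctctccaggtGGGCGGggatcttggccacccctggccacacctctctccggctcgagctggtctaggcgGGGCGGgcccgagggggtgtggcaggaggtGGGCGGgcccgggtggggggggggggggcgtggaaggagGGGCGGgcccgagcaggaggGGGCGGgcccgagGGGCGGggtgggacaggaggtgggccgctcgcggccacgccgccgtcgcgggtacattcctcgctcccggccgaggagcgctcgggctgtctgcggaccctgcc
BAAT: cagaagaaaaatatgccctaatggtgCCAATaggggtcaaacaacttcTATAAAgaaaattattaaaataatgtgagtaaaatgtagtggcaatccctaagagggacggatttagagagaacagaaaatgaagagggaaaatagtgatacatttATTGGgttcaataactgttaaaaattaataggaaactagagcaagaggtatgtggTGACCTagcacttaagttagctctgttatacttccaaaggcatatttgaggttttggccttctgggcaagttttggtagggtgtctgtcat

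The windows had little in common. The FGFR4 window held 7 GC boxes and was rich in G and C, at 78.7%, where the median of 34943 human promoter windows was 58.7%, and it held none of the other motifs. NR1H4 and KLB, which fell with FGFR4, had no GC box, a motif that 44.9% of all windows hold. NR1H4 had 1 receptor hexamer, at position -230 from the start on the opposite strand, and BAAT had 1 at position -41. That hexamer stood in 13.8% of all windows. KLB held 1 forkhead motif (3.42% of all windows), and BAAT a TATA box (11.6%) and 2 CCAAT boxes (34.6%). The RefSeq start of NR1H4 lies 29652 bases inside the deposited gene span, so counts per gene do not tell which start was used. That of BAAT lies 45 bases before the deposited 5′ end, outside the span. FGFR4 and BAAT each have another RefSeq window, not shown, that held none of the marked motifs.

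Genes with a profile like that of NR1H4 were sought among 4568 protein-coding genes within a factor of 2 of its mean CPM, by the Euclidean distance between log2 CPM profiles over the 6 libraries, each centred on its DMSO mean. The nearest were APOA5, an apolipoprotein of triglyceride metabolism (distance 0.152), AIF1L (0.188), SLC13A3, a carrier of dicarboxylates (0.207), MT1G, a metallothionein (0.222), and IGSF1 (0.251), where the median distance was 2.08. As each profile was centred on its DMSO mean, a small distance mainly reflects a log2 fold change close to that of NR1H4. The 5 genes ran from -1.20 to -1.06, where NR1H4 was at -1.18. APOA5 had 35.2 ± 1.75 CPM in DMSO against 15.3 ± 0.325 CPM with oridonin (SD, n = 3), which is -1.20 on the log2 scale. MT1G has close paralogs, and its value is uncertain as far as they share reads.

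Among 36 tested bile acid receptors and regulators of CYP7A1 and CYP8B1, NR1H4 and NR0B2 included, 13 were called lower and 4 higher (median log2 fold change -0.12). Of all genes tested, 21.3% were called lower and 20.6% higher. With a replicate block, 20 of the list were called lower. PPARGC1A, a coactivator of nuclear receptors, was the only gene of the list below NR1H4, at 19.9 ± 0.995 CPM in DMSO against 7.44 ± 0.958 CPM with oridonin (SD, n = 3). Its change was -1.42 ± 0.09 on the log2 scale (SE; adjusted p = 4.7e-09 by edgeR). ONECUT1, a liver homeobox factor, fell from 7.26 ± 0.437 to 3.58 ± 0.575 CPM, and the orphan receptor gene RORA from 19.3 ± 1.34 to 12.2 ± 1.46 CPM. The xenobiotic receptor gene NR1I2 rose from 14.2 ± 0.160 to 19.1 ± 0.274 CPM, and the oxysterol receptor genes NR1H2 and NR1H3 rose by log2 fold changes of 0.39 and 0.29. RXRB was called higher at 0.17 but was not called in 6 of 12 other settings. HNF4A, a factor that drives CYP7A1 and CYP8B1, had 262 ± 7.50 CPM in DMSO and 254 ± 10.3 CPM in oridonin and did not pass the test (log2 fold change -0.04, edgeR adjusted p = 0.502, and 0.04 with total-count scaling). NR5A2, the receptor through which NR0B2 acts on CYP7A1, had 1.43 ± 0.310 and 1.46 ± 0.434 CPM, a level per length of 0.188 FPKM in DMSO against 54.1 FPKM for NR0B2.

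Of 19 other tested FXR targets, 6 were called lower and 5 higher (median log2 fold change -0.16), beside 21.3% lower and 20.6% higher among all genes tested. The list holds genes that FXR is known to induce and genes, such as APOC3, that it is known to repress. KNG1, the kininogen gene, fell from 2.01 ± 0.439 to 0.781 ± 0.0349 CPM (SD, n = 3), and APOC3, C3 and SULT2A1 fell as well, at log2 fold changes of -1.45, -0.72 and -0.60. The fibrinogen chain genes, which FXR can also induce, went up together: FGA rose from 25.6 ± 3.85 to 44.8 ± 2.76 CPM, FGG from 30.9 ± 4.88 to 57.6 ± 2.05 CPM and FGB from 5.78 ± 0.514 to 13.5 ± 0.898 CPM (SD, n = 3). SQSTM1, an autophagy receptor, rose at 0.68.

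Of 12 tested bile acid synthesis and conjugation enzymes, BAAT and SLC27A5 included, 4 were called higher and 2 lower (median log2 fold change 0.11). The shares over all genes tested were 20.6% higher and 21.3% lower. CYP27A1, which opens the alternative pathway, was abundant, with 181 ± 7.83 CPM in DMSO and 199 ± 6.22 CPM in oridonin; its call at 0.13 was lost in 7 of 12 other settings. The next enzyme of that pathway, CYP7B1, had 3 counts in DMSO and 2 in oridonin. The peroxisomal enzymes of side chain shortening went both ways: HSD17B4 fell from 138 ± 4.84 to 108 ± 2.83 CPM, the thioesterase gene ACOT8 rose from 13.8 ± 0.433 to 17.2 ± 0.777 CPM (SD, n = 3), and the importer gene ABCD3 rose at 0.19, a call that was lost without oridonin replicate 2 (0.14, edgeR adjusted p = 0.079). Without that library 2 enzymes were called higher. SLC27A2, a very long-chain acyl-CoA synthetase, fell at -0.46.

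Of 12 tested bile acid and bile lipid transporters, 4 were called higher and 2 lower (median log2 fold change -0.10), beside 20.6% higher and 21.3% lower among all genes tested. The 4 that rose are ATP-driven exporters: ABCC2 from 271 ± 1.22 to 458 ± 23.6 CPM, ABCC3 at 0.63, ABCB1 from 9.73 ± 0.646 to 14.5 ± 0.989 CPM and ABCC4 from 31.6 ± 1.38 to 37.8 ± 2.47 CPM (SD, n = 3). The other ATP-driven exporters tested in the list, ABCG8 (below) among them, were not called higher. SLC51B, a subunit of the basolateral bile acid exporter that also stands among the FXR targets, had 17.7, 19.7 and 20.9 CPM in the DMSO libraries and 14.8, 13.4 and 15.3 CPM in the oridonin libraries. The groups did not overlap, and it had a log2 fold change of -0.43 ± 0.08 (SE; adjusted p = 0.000505 by edgeR). The other subunit, SLC51A, had a log2 fold change of -0.27 ± 0.13 and missed the threshold (adjusted p = 0.112 by edgeR). Leaving out oridonin replicate 3 gave -0.38 and a call (adjusted p = 0.0462). The sterol exporter gene ABCG8 was called lower at -0.29, but its call was lost in 7 of 12 settings, among them without DMSO replicate 1, DMSO replicate 2, oridonin replicate 2 and oridonin replicate 3 (adjusted p = 0.0569 to 0.0757). The main bile acid importer of hepatocytes, SLC10A1, had 3 counts in DMSO and 3 in oridonin, and SLCO1B1 had 0 in every library. HepG2 thus held few reads for ABCB11, SLC10A1 and SLCO1B1, while ABCC2 stood at 43.1 FPKM in DMSO.

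Of 34 tested genes of FGF19 receptor signalling, FGFR4 and KLB included, 13 were called lower and 5 higher (median log2 fold change -0.07). Over all genes tested, 21.3% were called lower and 20.6% higher. In this list 8 were called higher without DMSO replicate 3, with total-count scaling and with a replicate block. The phosphatase gene DUSP5, an inhibitor of nuclear ERK, rose from 20.6 ± 3.97 to 85.6 ± 1.92 CPM, and DUSP4 from 1.61 ± 0.427 to 4.97 ± 0.161 CPM (SD, n = 3). The feedback inhibitor gene SPRY4 rose from 154 ± 18.9 to 210 ± 2.21 CPM and the adaptor gene SHC1 from 215 ± 12.6 to 290 ± 18.4 CPM. DUSP6 had 78.2 ± 7.54 and 85.5 ± 1.84 CPM and did not pass the test (log2 fold change 0.13, adjusted p = 0.12 by edgeR). Leaving out DMSO replicate 3 gave 0.18 and a call (adjusted p = 0.0233), as did total-count scaling and a replicate block. EGR1, the immediate early factor, had 85.1, 96.3 and 138 CPM in the DMSO libraries and 145, 149 and 158 CPM in the oridonin libraries. The groups did not overlap, but EGR1 was not called (adjusted p = 0.112 by edgeR). Leaving out DMSO replicate 3 gave 0.73 and a call (adjusted p = 1.56e-10), and limma on the deposited log2 FPKM gave 0.55 and a call (adjusted p = 0.0379).

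**Figure D4:**
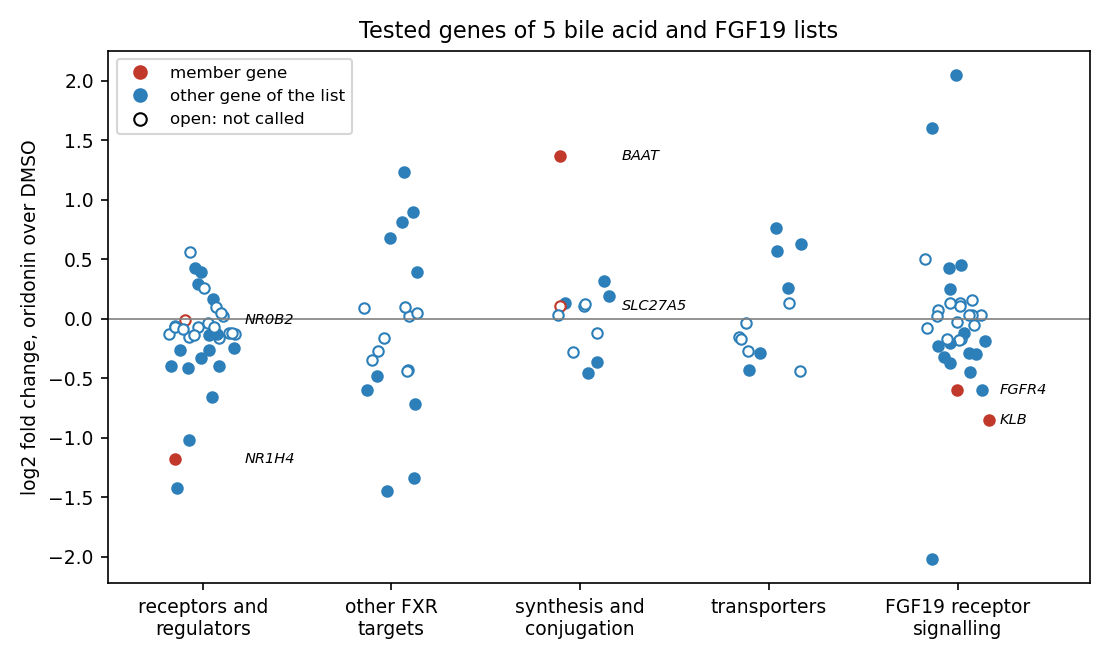
Log2 fold change, oridonin over DMSO, of each tested gene in 5 lists of the bile acid and FGF19 axis (red, member genes; blue, other genes; filled where called). NR1H4 at -1.18 lay near the bottom of the receptors and regulators, BAAT at 1.37 at the top of the enzymes, and FGFR4 and KLB among the lowest of FGF19 receptor signalling.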

How the data were processed

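RNA sequencing libraries of HepG2 cells, 3 per treatment, were read from 2 tables deposited by the authors: raw counts per Ensembl gene, with no scaling, and log2 FPKM values, which by their relation to the counts are counts per kilobase of the deposited gene length per scaled library, with no pseudocount. The build hg38 and DESeq2 1.10.1 are named, without a role, per the submitters' processing notes. For the aligner, the counter and the strandedness nothing is given in the sources used here. Columns were tied to libraries by the names in the labels.

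Counts were tested with edgeR 4.0.16 in R 4.3.3 (robust glmQLFit and glmQLFTest on treatment alone, filterByExpr defaults, TMM scaling), with Benjamini-Hochberg adjustment over the 15116 genes tested; a gene was called at an adjusted p under 0.05. The fit was tested on simulated counts in which only a small share of genes changed, in both directions. That simulation does not test the scaling where many genes change, as here. CPM use TMM-scaled library sizes, and the SE is the log2 fold change divided by the root of F. Level order and ratios use deposited FPKM. Symbols came from the deposited annotation, otherwise from a table of current names, and 196 of 197 list symbols matched 1 gene; RGS5 matched several and was left out. Overlaps are from GENCODE release 29 on the same build.

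Members and lists were chosen with earlier results of these data known. Named genes are the 10 members, 15 genes fixed by name and the 5 profiles nearest to NR1H4. Up to 4 called genes at each end of each list whose mean reached 1 CPM in either group are named as well. VIL1, NUDC, ZNF446 and ACKR2 are named for a marker sum or an overlap. The genes with few counts in the closing section, SLCO1B1, FGFRL1, and the low transporter and marker genes were chosen after their values were seen. Alternatives were other scalings, no count filter, DESeq2 1.42.0, limma 3.58.1 on log2 FPKM, a replicate block and leaving out each library.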

Additional observations from a re-analysis of the deposited data

How the results depend on the processing

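NR1H4, KLB, FGFR4 and BAAT were called, in the same direction, in all 12 alternatives (DESeq2 size factors, total-count scaling, DESeq2's test, no count filter, limma on log2 FPKM, a replicate block and 6 leave-one-out fits), and NR0B2 and SLC27A5 in none. Calls over all genes ran from 5282 without DMSO replicate 2 to 7689 with the replicate block, against 6332. NR0B2, at -0.01, turned to 0.07 with total-count scaling, 0.01 without a count filter, 0.02 with limma and -0.09 to 0.07 when a library was left out; HNF4A turned to 0.04 with total-count scaling; NR5A2, at 0.02, ran from -0.11 to 0.24 when a library was left out. None of these was called, and the cause was not tested. The replicate numbers of the labels were not shown to pair the libraries: correlations of same-numbered deviations were 0.194, 0.0651 and 0.173, though each library correlated best with its own number. The replicate block called the same 4 of the members. CYP7A1, CYP8B1, ABCB11 and FGF19 had at most 7 counts in a library, so only large differences could be detected.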

Other observations

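Other genes of the axis with too few counts to be tested are given as values only. FABP6, the ileal bile acid binding protein and an FXR target, had 0, 3 and 0 counts in the DMSO libraries against 5, 5 and 2 in the oridonin libraries, in replicate order. It is also one of the gut epithelial markers whose summed low-level counts were higher in oridonin, and their part in this difference was not tested. SLCO1B3, a hepatocyte importer, had 1, 2 and 2 counts in DMSO and 0 in each oridonin library. CYP39A1, an oxysterol hydroxylase, had 6, 10 and 9 counts in DMSO and 3, 5 and 6 in oridonin. GPBAR1, the membrane receptor for bile acids, had 6, 3 and 11 counts in DMSO and 14, 10 and 5 in oridonin, and VDR had 2, 7 and 5 against 2, 8 and 11. Klotho itself (KL), the relative of KLB that serves FGF23, had 1 count in all, and FGF23 had 0.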
